A study of Mus musculus with 12 samples.

Results

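Per1, Per2, Per3, Cry1, Cry2, Arntl, Clock, Nr1d1, Nr1d2 and Dbp are 9 core genes of the mammalian circadian clock and 1 direct output gene. They were chosen by symbol, with earlier results of these data known, and all 10 were found among the 36144 gene symbols of the table. RNA had been sequenced after poly-A selection in 12 libraries of wild-type primary mouse hepatocytes, liver cells taken by collagenase perfusion from a C57/Bl6J animal and cultured without serum for 16 h. FDMn cells (n = 3) received 6 µM MnCl2 during those 16 h, followed by 10 µM forskolin and 1 µM dexamethasone for 5 h. FDI cells (n = 3) received 100 nM insulin 1 h before the same forskolin and dexamethasone, FD cells (n = 3) received forskolin and dexamethasone alone, and Mock cells (n = 3) received none of these agents. Forskolin activates adenylate cyclase and so raises cAMP, and dexamethasone is a synthetic glucocorticoid. No group received manganese or insulin alone, and the labels name a single animal, so the p-values cover only how these libraries differ from one another, which could be technical. Each group was lysed at 1 time only, which was 5 h after forskolin and dexamethasone where these were given. Manganese and insulin had been started earlier than these agents. With 1 time per group, a shift in the phase of a rhythm and a change in its mean level cannot be told apart.

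The clock is a loop of transcription and repression. The proteins encoded by Clock and Arntl (BMAL1) form a dimer that binds E-boxes and switches on the Per, Cry, Nr1d1, Nr1d2 and Dbp genes. PER and CRY proteins repress that dimer. The nuclear receptors REV-ERBα (Nr1d1) and REV-ERBβ (Nr1d2) repress Arntl, while ROR receptors activate it through the same element. DBP carries the rhythm to output genes through D-boxes. In liver, glucocorticoids and cAMP are known to act on Per1, and feeding signals such as insulin are known to reset the hepatic clock.

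The unit is TPM, the deposited transcript abundance scaled to 1000000 per library and corrected for transcript length, so levels can be set side by side between genes. It keeps no read number, so the depth of each library is unknown. The albumin transcript Alb was at 27023 to 27728 TPM in FDMn, 22527 to 23228 in FDI, 22624 to 32589 in FD and 25423 to 26302 in Mock libraries. FD replicate 3 held the lowest Alb value of its group and stood apart from FD replicates 1 and 2 on the second principal component (7.98 against 22.3 and 29.0, 12.4% of the variance). Without it, every call on a clock gene stayed as given below, except that Arntl then passed in the FDMn and FDI comparison. All 6 hepatocyte markers analysed were present in each group, but their levels differed. In FD against Mock 4 of the 6 rose and 0 fell, beside 11.2% and 29.9% of all genes tested. Cps1 averaged 79.7 TPM in FDMn, 34.8 in FDI, 207 in FD and 3.76 in Mock. Hnf4a averaged 184, 178, 205 and 52.1 TPM in these groups. Of 26 markers of endothelial, Kupffer, stellate, bile duct and lymphoid cells, 15 stayed below 1 TPM in all 12 libraries. The bile duct list, whose summed level is nearly all Sox9, was at 24.7 to 26.9 TPM in FDMn, 37.3 to 48.7 in FDI, 15.8 to 19.1 in FD and 33.4 to 39.9 in Mock. The endothelial list summed to 22.9 to 26.2, 16.7 to 22.1, 19.1 to 27.7 and 15.2 to 16.1 TPM in these same groups. The Kupffer cell list stayed below 5.2 TPM and the stellate cell list at or below 4.83 TPM. The part of any of these cells in the results was not tested. In bulk samples, fewer cells of a type and less RNA per cell cannot be told apart.

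The promoters of Per1, Arntl and Cry1 are shown because these genes changed and their windows hold elements through which the clock, cAMP or the REV-ERB receptors are known to act. Each window runs from 250 bases before to 50 bases after a RefSeq start on GRCm38.p6, on the strand of the gene, and 9 of the 10 genes matched the table of such windows (not Per2). Capitals mark the E-box CACGTG, the short cAMP response element TGACG and the core TAGGTCA of the ROR and REV-ERB element, searched on both strands. The full cAMP response element TGACGTCA, the D-box TTANGTAA and the glucocorticoid receptor core AGAACA were also searched. The short element is part of the full one. Per1 has an upstream and a downstream start, both on the plus strand, at chr11:69098699-69098998 and chr11:69099902-69100201. The Arntl window, the second of its starts, lies at chr7:113207261-113207560 on the plus strand and the Cry1 window at chr10:85185005-85185304 on the minus strand. The windows shown are a selection. The Cry2 window, which held the short cAMP response element, and the window of the first Arntl start, which held none of these motifs, are left out.
Per1 upstream: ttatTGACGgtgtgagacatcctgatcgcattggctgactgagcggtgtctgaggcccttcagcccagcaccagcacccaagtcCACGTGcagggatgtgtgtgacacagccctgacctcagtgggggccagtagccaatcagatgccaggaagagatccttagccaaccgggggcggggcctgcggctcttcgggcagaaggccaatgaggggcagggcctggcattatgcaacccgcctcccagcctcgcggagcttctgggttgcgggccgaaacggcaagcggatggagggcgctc
Per1 downstream: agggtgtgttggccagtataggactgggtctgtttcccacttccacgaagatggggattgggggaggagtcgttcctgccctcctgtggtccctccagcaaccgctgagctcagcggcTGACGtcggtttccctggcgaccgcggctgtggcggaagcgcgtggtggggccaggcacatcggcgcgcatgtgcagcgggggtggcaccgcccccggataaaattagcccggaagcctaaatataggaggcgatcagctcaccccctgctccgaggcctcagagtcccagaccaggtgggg
Arntl: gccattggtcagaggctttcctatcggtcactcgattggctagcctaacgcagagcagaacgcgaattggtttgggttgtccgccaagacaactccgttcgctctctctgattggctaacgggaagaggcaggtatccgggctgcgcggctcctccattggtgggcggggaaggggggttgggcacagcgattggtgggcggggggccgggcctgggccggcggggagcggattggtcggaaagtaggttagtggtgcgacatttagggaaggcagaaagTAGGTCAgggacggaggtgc
Cry1: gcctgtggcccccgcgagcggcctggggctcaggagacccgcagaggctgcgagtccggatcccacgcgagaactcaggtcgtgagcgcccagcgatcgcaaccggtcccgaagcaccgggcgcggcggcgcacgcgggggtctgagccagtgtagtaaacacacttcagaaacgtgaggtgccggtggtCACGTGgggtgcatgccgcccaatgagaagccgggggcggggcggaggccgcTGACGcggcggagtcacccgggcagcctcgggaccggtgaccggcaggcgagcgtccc

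An E-box was found in the upstream Per1 window, beginning at position −166, and in the Cry1 window at −60. Among 32851 windows of all genes, 7.15% held an E-box. The short cAMP response element stood at −132 in the downstream and −246 in the upstream Per1 window, at −8 in Cry1 and, on the opposite strand, at −209 in Cry2. It occurred in 20.8% of all windows, and the full element, in 1.79% of all windows, was in none of those of the 9 genes. The Arntl window shown, but not that of its first start, held the core TAGGTCA at +31, a sequence found in 2.61% of all windows. Per3 held the D-box at −205 and −158, against 2.32% of all windows with at least 1. The windows of Nr1d1, Nr1d2, Dbp and Clock held none of the 6 motifs, and the glucocorticoid receptor core, in 19.0% of all windows, was in none of the 9 genes. These are matches of letters in short windows.

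All 10 genes are annotated as protein-coding on GRCm38 (GENCODE M21). Per1 lies at chr11:69095217-69109960 (+), Per2 at chr1:91415982-91459324 (−) and Per3 at chr4:151003652-151044665 (−). Cry1 lies at chr10:85131700-85185064 (−) and Cry2 at chr2:92403646-92434043 (−). Arntl lies at chr7:113207465-113314126 (+), Clock at chr5:76209868-76304792 (−) and Dbp at chr7:45705088-45710203 (+). Nr1d1 lies at chr11:98767932-98775333 (−) and Nr1d2 at chr14:18204054-18239127 (−).

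FD cells were first set against Mock cells, to ask how forskolin with dexamethasone changed clock gene levels. Per1, Per2, Cry2 and Arntl rose, and Nr1d1, Nr1d2 and Dbp fell. Clock and Cry1 did not pass the test, and Per3 was too low to be tested. Of the 9 genes that passed the filter on low values (1 TPM or more in 3 or more libraries), 4 thus rose, against a background of 11.2% of all 11544 genes tested, and 3 fell, Dbp among them, which passed that filter only through libraries of groups in which it was high. On TPM the background of falls was 29.9%, near the share of the clock genes, and the background in either direction was 41.1%. The background depended on scaling. Median-of-ratios scaling gave 2054 higher and 1982 lower genes over all 11544, with Nr1d1, Nr1d2 and Dbp still falling and Cry1 added to the rises. The median log2 change was 0.21 over the 9 clock genes and −0.15 over all genes tested. Changes are differences of log2(TPM + 1), tested with limma in 1 fit over all 12 libraries with Benjamini-Hochberg adjustment over all genes tested (threshold 0.05). This scale understates the change of low genes.

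The Period genes encode the repressor proteins of the loop that respond to acute signals. Per1 stood at 31.8, 32.2 and 29.0 TPM in FD libraries 1 to 3, against 3.94, 4.17 and 5.28 TPM in Mock libraries 1 to 3. All FD libraries were far above all Mock libraries. The ratio of means was 6.96 and the log2 change 2.56 ± 0.10 (SE, adjusted p = 1.23e-09, limma). Per2 followed at a smaller size, with 10.3, 12.01 and 10.02 TPM in FD and 4.80, 3.93 and 4.71 TPM in Mock, a 2.40-fold rise (log2 change 1.10 ± 0.10, adjusted p = 2.16e-06, limma). In FD cells Per1 averaged 31.0 ± 1.75 TPM and Per2 10.8 ± 1.09 TPM, whereas in Mock cells their means were nearly equal, at 4.46 ± 0.72 TPM for Per1 and 4.48 ± 0.48 TPM for Per2 (SD, n = 3 each). Per3, the least abundant of the 10 genes in FD and Mock alike, had 0.439, 0.239 and 0.241 TPM in FD and 0.823, 0.906 and 0.529 TPM in Mock. These groups did not overlap, as for 48.0% of all genes tested. In a fit with no filter on low values, over 21494 genes, the log2 change of Per3 was −0.42 ± 0.12 (adjusted p = 0.0373, limma).

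The Cryptochrome genes encode the partners of PER and the stronger repressors of the CLOCK and BMAL1 dimer. Cry2 had 24.95, 23.9 and 25.6 TPM in FD and 6.29, 9.72 and 7.93 TPM in Mock. The FD libraries lay close together, well above all Mock libraries, and the 3.11-fold rise gave a log2 change of 1.54 ± 0.11 (adjusted p = 5.19e-07, limma). Cry1 was at 8.19, 9.54 and 8.37 TPM in FD and 8.40, 6.41 and 7.38 TPM in Mock, so the groups overlapped. Its log2 change of 0.21 ± 0.10 did not pass (adjusted p = 0.109, limma; interval −0.00 to 0.43). It did pass under median-of-ratios scaling (0.36, adjusted p = 0.0151), quantile normalization (0.36, adjusted p = 0.0142) and without Mock replicate 1 (0.30, adjusted p = 0.0379), and the adjusted p ranged from 0.0142 to 0.348 over 20 alternative settings in limma. Cry2 shares 295 exonic bases with D930015M05Rik on the opposite strand, and without strand the reads of such a pair cannot be told apart. That transcript was not analysed here.

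The activator pair split. Arntl had 30.4, 33.0 and 28.2 TPM in FD and 13.3, 11.6 and 12.6 TPM in Mock. It rose 2.44-fold, with every FD library above every Mock library (log2 change 1.22 ± 0.08, adjusted p = 1.44e-07, limma). It shares 33 exonic bases with Gm45355 on the opposite strand, which was not analysed here. Clock had 21.4, 20.0 and 19.9 TPM in FD and 16.7, 19.6 and 19.5 TPM in Mock. The FD libraries were all higher, but by less than the test could separate (0.13 ± 0.12, adjusted p = 0.418, limma; interval −0.14 to 0.40). Arntl was thus the more abundant of the pair in FD cells (30.5 ± 2.42 TPM, with Clock at 20.4 ± 0.84 TPM) and Clock in Mock cells (18.6 ± 1.69 TPM, with Arntl at 12.5 ± 0.82 TPM; SD, n = 3 each).

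Both REV-ERB genes, the repressors of Arntl, fell while Arntl rose. Nr1d1 had 5.59, 5.98 and 4.22 TPM in FD and 17.1, 20.7 and 17.2 TPM in Mock. Every FD library lay far below every Mock library, and the log2 change was −1.63 ± 0.14 (ratio of means 0.287, adjusted p = 1.57e-06, limma). Nr1d2, the more abundant of the 2 in both groups, had 15.3, 12.9 and 13.5 TPM in FD and 30.0, 26.7 and 31.2 TPM in Mock (ratio 0.474, log2 change −1.02 ± 0.10, adjusted p = 7.41e-06, limma). Nr1d1 shares 263 of its annotated exonic bases (8.55%) with Thra, a thyroid hormone receptor gene on the opposite strand, and the use of strand in counting is not given in the sources used here. Thra was at 2.99 TPM in FD and 6.23 TPM in Mock (−0.87 ± 0.15, adjusted p = 0.000715, limma). Its part in the Nr1d1 value was not tested.

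Dbp encodes a transcription factor whose own transcript swings widely over the day in liver. It was low throughout, with 0.375, 0.396 and 0.525 TPM in FD and 1.13, 0.977 and 1.92 TPM in Mock. The groups did not overlap, and the log2 change of −0.69 ± 0.17 passed (ratio of means 0.322, adjusted p = 0.0073, limma). Dbp reached the filter through only 2 Mock libraries and FDMn replicate 1, so it entered the test through the groups in which it was high. It shares 539 exonic bases (18.01%) with Sphk2, a sphingosine kinase gene on the opposite strand, which was at 13.4 TPM in FD and 18.02 TPM in Mock. The part of Sphk2 reads in the Dbp value was not tested.

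**Figure D1:**
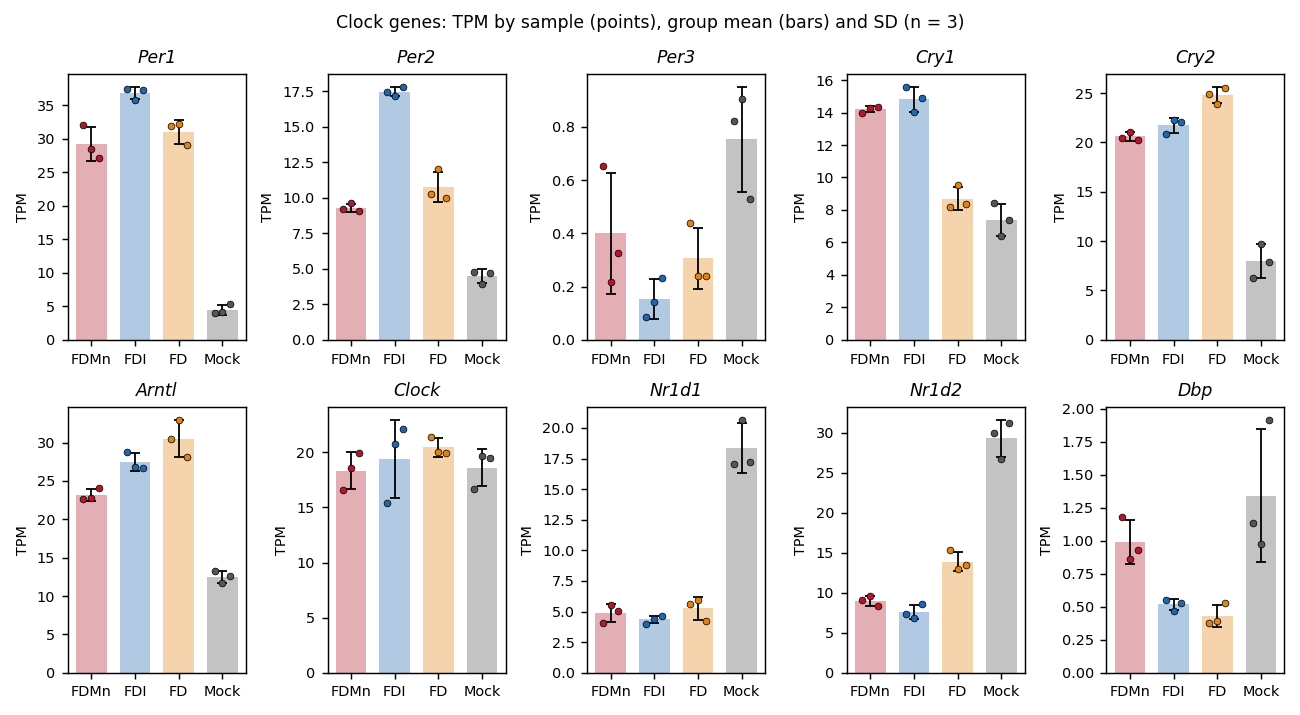
TPM of the 10 clock genes in each library (points), with the group mean (bars) and SD (error bars, n = 3) for FDMn, FDI, FD and Mock. Each panel has its own axis from 0. Per1, Per2, Cry2 and Arntl are higher and Nr1d1 and Nr1d2 lower in all 9 libraries given forskolin and dexamethasone than in the 3 Mock libraries, while Cry1 is high in FDMn and FDI only.

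The second comparison asked what insulin added to forskolin and dexamethasone. Per2 and Cry1 rose and Nr1d2 fell with insulin. The other 6 genes tested did not pass. The 2 genes that rose compare with 10.2% of all genes tested, and the 1 that fell with 4.35% (14.5% in either direction). The median log2 change was −0.08 over the 9 clock genes and 0.04 over all genes tested.

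Cry1, which had not passed in FD cells against Mock, had 15.6, 14.04 and 14.9 TPM in FDI libraries 1 to 3, against the 8.19 to 9.54 TPM of FD. All FDI libraries were above all FD libraries, and the 1.70-fold rise gave a log2 change of 0.71 ± 0.10 (adjusted p = 0.000611, limma). Per2 had 17.5, 17.2 and 17.8 TPM in FDI, against 10.02 to 12.01 TPM in FD. With insulin it thus stood higher than with forskolin and dexamethasone alone, a further 1.62-fold rise (0.66 ± 0.10, adjusted p = 0.00079, limma). Nr1d2 had 7.35, 6.85 and 8.54 TPM in FDI, against 12.9 to 15.3 TPM in FD, and fell further by 0.80 ± 0.10 on the log2 scale (adjusted p = 0.00031, limma).

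Per1 was at 37.4, 35.8 and 37.3 TPM in FDI, each above the highest FD library (32.2 TPM). Groups did not overlap for 30.8% of all genes tested in this comparison. The log2 change of 0.24 ± 0.10 did not pass (adjusted p = 0.125, limma; interval 0.03 to 0.45, not adjusted for the number of genes). Cry2 (21.7 ± 0.76 in FDI against 24.8 ± 0.84 TPM in FD) and Arntl (27.4 ± 1.15 against 30.5 ± 2.42 TPM) did not pass, at adjusted p = 0.319 and 0.242 in limma. Nr1d1 averaged 4.36 ± 0.31 TPM in FDI and 5.27 ± 0.92 TPM in FD (adjusted p = 0.333, limma), so that only the REV-ERBβ gene of this pair passed. Whether the pair differed from each other in their response was not tested. Clock, at 15.4, 20.8 and 22.1 TPM in FDI, spread more than in any other group (adjusted p = 0.704, limma). Dbp was at 0.553, 0.47 and 0.532 TPM in FDI (adjusted p = 0.791, limma). Per3, left out of the main test by the filter, was lowest here, with 0.0847, 0.141 and 0.232 TPM, each below every FD library. In the fit with no filter on low values its log2 change of −0.18 ± 0.12 did not pass (adjusted p = 0.534, limma).

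The third comparison asked what manganese added to forskolin and dexamethasone. Cry1 rose, and Arntl and Nr1d2 fell. The other 6 genes tested did not pass. In this comparison 7.22% of all genes tested rose and 7.90% fell, 15.1% in all. The median log2 change was −0.15 over the 9 clock genes and 0.00 over all genes tested.

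Cry1 had 13.99, 14.3 and 14.3 TPM in FDMn, against 8.19 to 9.54 TPM in FD. The 3 FDMn libraries were almost level and above every FD library (1.63-fold, log2 change 0.65 ± 0.10, adjusted p = 0.00108, limma). Arntl had 22.6, 22.7 and 24.1 TPM in FDMn, against 28.2 to 33.0 TPM in FD. Its log2 change was −0.38 ± 0.08 (ratio of means 0.758, adjusted p = 0.00657, limma), yet it stayed above its Mock level (12.5 ± 0.82 TPM). Nr1d2 had 9.03, 9.64 and 8.39 TPM in FDMn, below every FD library (log2 change −0.57 ± 0.10, adjusted p = 0.00292, limma). These 3 calls held in all 20 alternative settings, which included leaving out each library.

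Per1 was at 32.0, 28.5 and 27.2 TPM in FDMn and overlapped with FD (−0.09 ± 0.10, adjusted p = 0.611, limma). Per2, at 9.21, 9.62 and 9.07 TPM in FDMn, lay below all FD libraries, as groups failed to overlap for 33.0% of all genes tested, without passing (−0.19 ± 0.10, adjusted p = 0.211, limma; interval −0.40 to 0.02). The unadjusted intervals of both genes (−0.30 to 0.13 for Per1) lie below that of Cry1 (0.43 to 0.87). Whether these genes differed from each other in their response was not tested. Cry2 had 20.5, 21.1 and 20.3 TPM in FDMn (−0.26 ± 0.11, adjusted p = 0.154, limma). Clock (18.3 ± 1.67 TPM) and Nr1d1 (4.87 ± 0.73 TPM) likewise missed the threshold (adjusted p = 0.452 and 0.71, limma). Dbp had 1.18, 0.864 and 0.929 TPM in FDMn, above all FD libraries, but its log2 change of 0.47 ± 0.17 did not pass (adjusted p = 0.0904, limma). Per3 was uneven, with 0.652, 0.219 and 0.327 TPM in FDMn, and did not pass in the fit with no filter (0.09 ± 0.12, adjusted p = 0.771, limma).

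**Figure D2:**
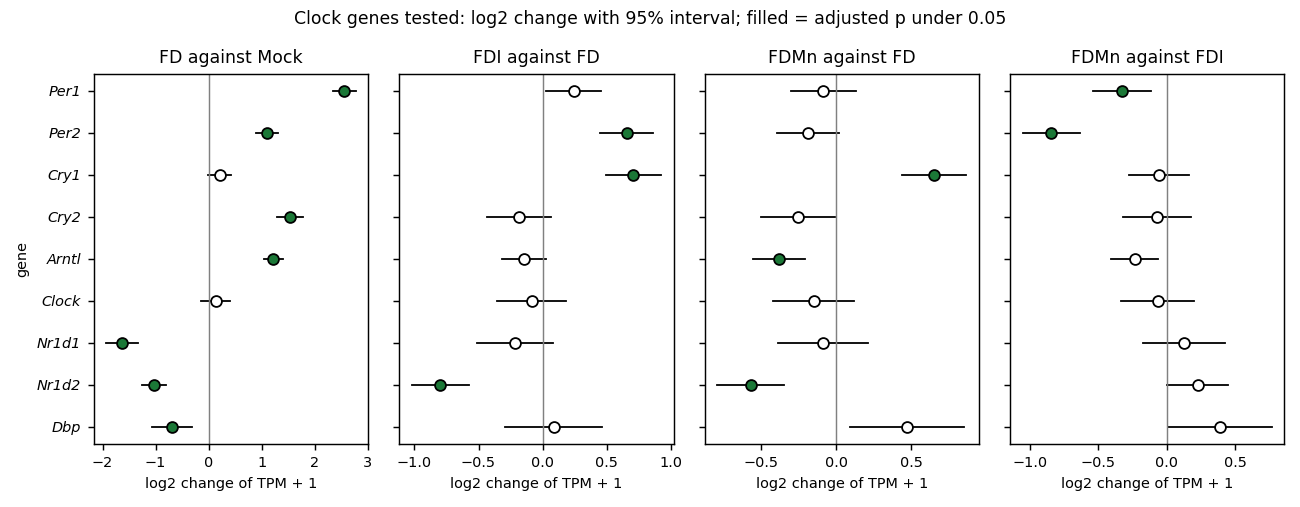
Log2 change of TPM + 1 (points) with its 95% interval (lines, not adjusted for the number of genes) for the 9 clock genes tested, in 4 comparisons, each panel with its own axis. Filled points passed an adjusted p of 0.05. Cry1 lies at 0.71 in FDI against FD and at 0.65 in FDMn against FD, Nr1d2 is below 0 in both, and Per2 is above 0 with insulin but not with manganese.

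The fourth comparison set manganese directly against insulin, both in the presence of forskolin and dexamethasone. The agents were given for different lengths of time, so the agent and the length of exposure cannot be told apart. Per2 was lower in FDMn, at 9.30 ± 0.28 TPM, than in FDI, at 17.5 ± 0.33 TPM (SD, n = 3 each), with no overlap (log2 change −0.84 ± 0.10, adjusted p = 0.000113, limma). Per1 was also lower in FDMn, at 29.2 ± 2.51 TPM, against 36.8 ± 0.93 TPM in FDI (−0.33 ± 0.10, adjusted p = 0.0382, limma). The Per1 call ended in 10 of 20 alternatives, among them a pseudocount of 0.1, median-of-ratios scaling and those without any single FDI replicate or without FDMn replicate 2 or 3 (adjusted p from 0.0182 to 0.135 over all 20). Of all genes tested 11.9% were lower in FDMn and 5.68% higher, 17.6% in all, and groups did not overlap for 40.5%. No clock gene was higher in FDMn by limma, while 2 were at an unadjusted p under 0.05.

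Cry1 was at nearly the same level in both groups, 14.2 ± 0.18 TPM in FDMn and 14.8 ± 0.77 TPM in FDI. The difference was −0.06 (interval −0.27 to 0.16 on the log2 scale, adjusted p = 0.748, limma). Nr1d2 averaged 9.02 ± 0.63 TPM in FDMn and 7.58 ± 0.87 TPM in FDI, with overlap (0.23 ± 0.10, interval 0.00 to 0.45, adjusted p = 0.153, limma). Arntl was lower in every FDMn library than in any FDI library (23.1 ± 0.83 against 27.4 ± 1.15 TPM), but the call missed the threshold (−0.23 ± 0.08, adjusted p = 0.0581, limma). It passed in 4 of 20 alternatives, among them the fit of only the 2 groups compared (adjusted p = 0.043) and those without FD replicate 2 or 3 (adjusted p = 0.0449 and 0.0466), with a range from 0.043 to 0.207 over all 20 in limma. Dbp averaged 0.99 ± 0.17 TPM in FDMn and 0.52 ± 0.04 TPM in FDI without overlap, and did not pass (adjusted p = 0.152, limma). Cry2, Clock and Nr1d1 overlapped between the groups, with adjusted p from 0.585 to 0.76 in limma.

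FDMn and FDI cells were also set against Mock. These comparisons share the Mock libraries with the first one and are not independent of it. In FDMn against Mock 7 of the 9 genes passed (background 42.7%), Per1, Per2, Cry1, Cry2 and Arntl being higher and Nr1d1 and Nr1d2 lower. Of all 11544 genes tested, 1390 were higher and 3535 lower on TPM, and 2129 and 2018 with median-of-ratios scaling. In FDI against Mock 5 rose (background 12.9%) and 3 fell (25.4%), against 38.3% of all genes in either direction. Cry1 was among those that rose in both, 1.92-fold in FDMn (log2 change 0.86 ± 0.10, adjusted p = 2.46e-05, limma) and 2.00-fold in FDI (0.92 ± 0.10, adjusted p = 1.69e-05, limma). Per1 was 6.55-fold higher in FDMn and 8.26-fold higher in FDI than in Mock. Nr1d2 had a ratio to Mock of 0.308 in FDMn and 0.259 in FDI, and Nr1d1 of 0.266 and 0.238. Dbp, counted among the falls in FDI, had entered the test only through Mock and FDMn libraries, where it was high. Its log2 change was −0.22 ± 0.17 in FDMn against Mock (adjusted p = 0.34, limma) and −0.61 ± 0.17 in FDI against Mock (adjusted p = 0.0163, limma). These calls do not show a difference between FDMn and FDI, which did not pass when set against each other (adjusted p = 0.152, limma). The Dbp call in FDI ended without Mock replicate 3 or without FDI replicate 2 (adjusted p = 0.0712 and 0.0508, limma), with a range from 0.0107 to 0.0712 over 19 alternatives.

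By mean level, Per1, Arntl, Cry2 and Clock held the first 4 ranks of the 10 genes, in that order, in FDMn, FDI and FD, while Nr1d2, Clock, Nr1d1 and Arntl held them in Mock. Per1 led in FDMn (29.2 ± 2.51 TPM, ahead of Arntl at 23.1 ± 0.83 TPM) and in FDI (36.8 ± 0.93 TPM, ahead of Arntl at 27.4 ± 1.15 TPM). In FD cells Per1 (31.0 ± 1.75 TPM) and Arntl (30.5 ± 2.42 TPM) led and did not differ beyond their spread. In Mock cells Nr1d2 stood first with 29.3 ± 2.34 TPM, followed by Clock (18.6 ± 1.69) and Nr1d1 (18.3 ± 2.04), whose means differed by less than their spread. Dbp and Per3 were the lowest in all 4 groups. The ratio of the highest to the lowest group mean was 8.26 for Per1, between 2.00 and 4.94 for 8 others and 1.11 for Clock.

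Further genes of the clock and its inputs were taken from a fixed list of 38 symbols, all found in the table, of which 36 passed the filter (not Rorb and Fbxl21). In FD against Mock 13 rose and 9 fell, with a median log2 change of 0.02 (−0.15 over all genes tested). Of all genes tested 11.2% rose and 29.9% fell, so the share of the list that fell was no higher than the background. The ROR receptor gene Rora, an activator of Arntl, rose 2.67-fold to 31.3 ± 1.21 TPM in FD, against 11.7 ± 1.76 TPM in Mock (log2 change 1.35 ± 0.14, adjusted p = 1.05e-05, limma). The BMAL1 paralog gene Arntl2 moved the other way from Arntl, at 3.30 ± 0.93 TPM in FD and 7.34 ± 0.97 TPM in Mock (−0.97 ± 0.16, adjusted p = 0.000351, limma). Nfil3, a repressor that binds the D-box like DBP, rose 1.88-fold to 70.1 ± 3.67 TPM in FD, against 37.2 ± 1.88 TPM in Mock (adjusted p = 4.58e-07, limma). The other D-box activators did not pass on all libraries. Tef averaged 27.6 TPM in FD and 33.6 TPM in Mock, and Hlf 3.72 and 2.19 TPM. Hlf passed in 5 of 19 alternatives, among them median-of-ratios scaling and those without FD replicate 3 or FDMn replicate 1 (adjusted p from 0.0226 to 0.193 over all 19, limma). Tef passed in 1 of 20, without Mock replicate 3 (adjusted p from 0.0405 to 0.86 over all 20, limma).

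Among the hormone inputs, 5 of 10 rose and 3 fell in FD cells, the falls being at the background of 29.9% and the background of rises 11.2%. The glucocorticoid receptor targets Fkbp5 and Tsc22d3 rose 7.55-fold and 6.09-fold, and the cAMP-responsive genes Crem and Sik1 3.14-fold and 2.93-fold. The helix-loop-helix inhibitor gene Id2 rose 5.45-fold. The genes for the CREB coactivator Crtc3 (ratio 0.519) and the glucocorticoid receptor itself, Nr3c1 (ratio 0.730), fell. Among clock outputs 6 of 9 rose and 1 fell, beside the same background. Alas1, the first enzyme of heme synthesis, rose 3.55-fold to 279 ± 15.9 TPM in FD against 78.4 ± 7.02 TPM in Mock, and Por rose 2.36-fold. The deubiquitinase gene Usp2 had 7.40, 4.15 and 3.36 TPM in FD and 2.35, 0.814 and 0.801 TPM in Mock, so Mock replicate 1 carried most of the Mock mean. Its log2 change was 1.37 ± 0.28 (adjusted p = 0.0019, limma) and 1.67 without that library. Among Mock libraries only replicate 1 reached 1 TPM, so Usp2 passed the filter on low values through the groups in which it was higher. Of the 6 kinase and ligase genes tested, Csnk1e fell (ratio 0.717, adjusted p = 0.0251, limma), a call lost in 7 of 20 alternatives, among them median-of-ratios scaling and those without Mock replicate 2, Mock replicate 3 or FD replicate 1. The other 5 did not pass. The count of 9 lower genes was 4 under median-of-ratios scaling and 5 without Mock replicate 2.

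Insulin raised 6 and lowered 2 of the 36 further genes (FDI against FD, median log2 change 0.10). Over all genes tested 10.2% rose and 4.35% fell, and the share of the list that fell was near that background. Of the 4 further repressors 3 rose. Of these, Bhlhe40 and Cipc had fallen in FD against Mock, and Ciart had not passed there. Both falls were lost under median-of-ratios scaling and in the fit of only the 2 groups compared. That of Cipc was also lost under quantile normalization, with no filter and without Mock replicate 2 or 3 or FD replicate 2 or 3. In Mock cells Bhlhe40 was at 138 ± 9.09 TPM, Cipc at 43.1 ± 6.61 TPM and Ciart at 2.87 ± 0.29 TPM. Ciart, which encodes a repressor of the CLOCK and BMAL1 dimer, had 13.3, 10.2 and 18.5 TPM in FDI and 7.97, 3.75 and 4.11 TPM in FD (log2 change 1.28 ± 0.29, adjusted p = 0.012, limma), a call lost without FDI replicate 3. Bhlhe40 (DEC1), which competes for E-boxes, rose 1.57-fold to 168 ± 10.3 TPM in FDI, against 107 ± 19.5 TPM in FD (adjusted p = 0.00123, limma). Cipc rose 1.31-fold to 43.3 ± 2.81 TPM in FDI, near its Mock level, against 33.0 ± 3.14 TPM in FD (adjusted p = 0.0428, limma). That call passed in 8 of 20 alternatives. It was lost under median-of-ratios scaling, quantile normalization, no filter and the replicate block. It was also lost without any single FDI replicate, FD replicate 2 or 3, Mock replicate 3 or FDMn replicate 2 or 3. Nfil3 rose to 102 ± 3.26 TPM in FDI, against 70.1 ± 3.67 TPM in FD (0.54 ± 0.06, adjusted p = 0.00019, limma). Id2 fell to a ratio of 0.599, and the secreted protein gene Tsku rose by 0.58 on the log2 scale. The count of 6 was 3 without FDI replicate 3, and the count of 2 was 4 without FD replicate 3.

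With manganese 1 of these 36 genes rose and 4 fell against FD (median log2 change 0.03). Of all genes tested 7.22% rose and 7.90% fell, 15.1% in all, so the list as a whole was called no more often than the background. Usp2 had 2.08, 1.41 and 1.79 TPM in FDMn and 7.40, 4.15 and 3.36 TPM in FD, a log2 change of −1.06 ± 0.28 (adjusted p = 0.0235, limma). That call ended with no filter on low values and without FD replicate 1, FDMn replicate 2 or FDMn replicate 3. Csnk1d, a kinase that phosphorylates PER proteins, fell to 48.2 ± 2.16 TPM in FDMn, against 72.7 ± 12.9 TPM in FD (adjusted p = 0.0145, limma), a call lost without FD replicate 1 or FDMn replicate 1. Id2 had a ratio of 0.768 (adjusted p = 0.00611, limma) and Crem of 0.681 (adjusted p = 0.0226, limma), a call lost with no filter, without FD replicate 2 or 3 and without FDMn replicate 1 or 2. Crtc2 rose 1.27-fold (adjusted p = 0.0128, limma), a call lost without FDMn replicate 1. It averaged 33.3 ± 1.89 TPM in FDMn, 26.3 ± 1.58 TPM in FD and 37.7 ± 3.26 TPM in Mock, so its FDMn mean was below that of Mock. The 1 higher gene became 3 without FD replicate 3, 2 without FD replicate 2 or FDMn replicate 3 and 0 without FDMn replicate 1, and the 4 lower genes became 2 without FD replicate 1, FDMn replicate 1 or FDMn replicate 2. Nfil3 and Bhlhe40 stood at 66.2 ± 3.70 and 110 ± 3.06 TPM in FDMn, and both were lower there than in FDI (log2 change −0.62 and −0.61, adjusted p = 6.27e-05 and 0.00184, limma). In that direct comparison 2 of the 36 were higher in FDMn and 8 lower, against 5.68% and 11.9% of all genes tested, so the higher count was at the background. The 2 became 1 without FDI replicate 1, FDI replicate 3 or FDMn replicate 1, and the 8 became 5 without FDI replicate 3, FDMn replicate 2 or FDMn replicate 3.

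**Figure D3:**
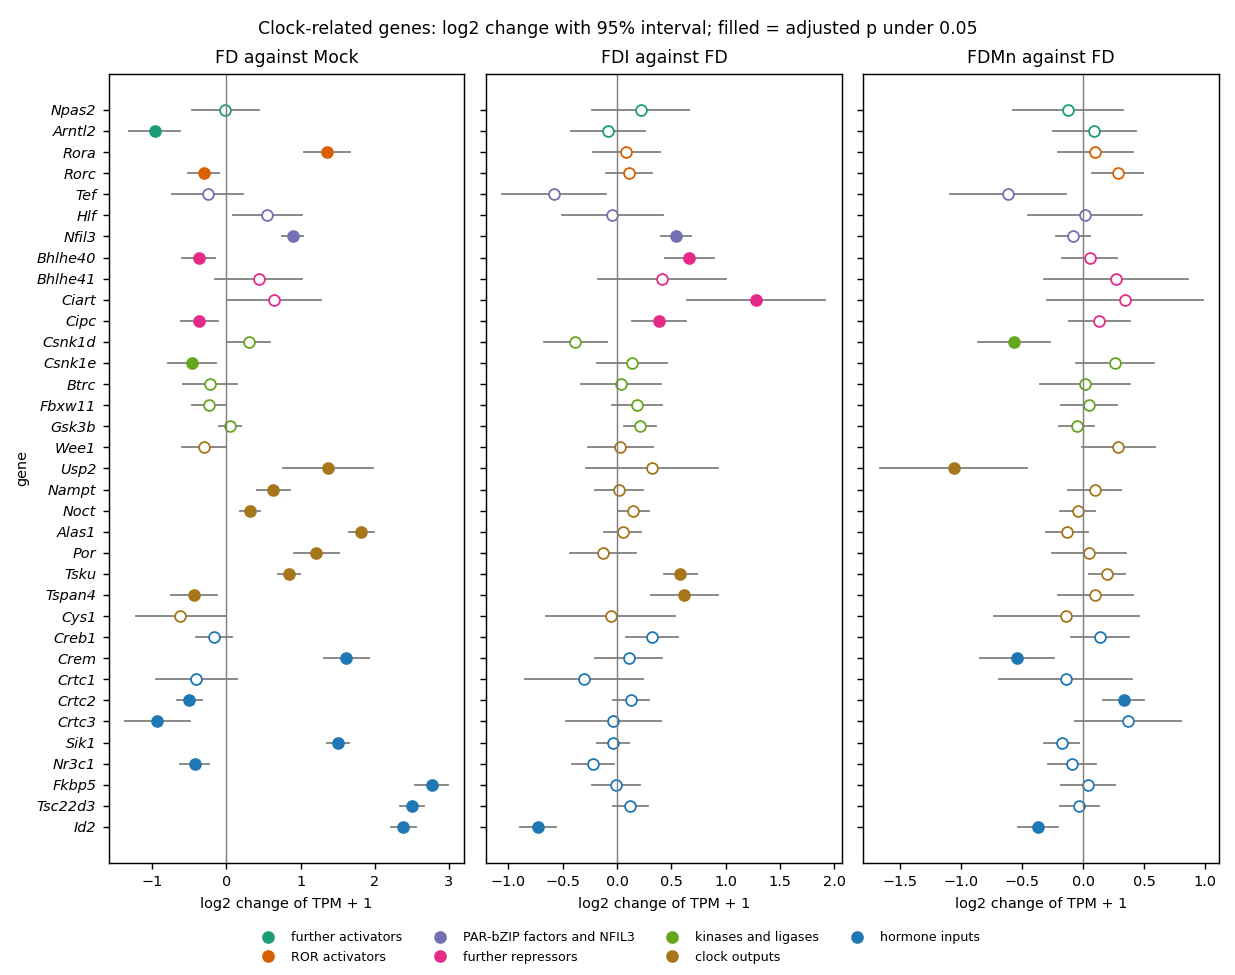
Log2 change of TPM + 1 (points) with its 95% interval (lines, not adjusted for the number of genes) for the further clock-related genes tested, all but 1, coloured by role, in 3 comparisons, each panel with its own axis. Filled points passed an adjusted p of 0.05. In FD against Mock 13 filled points lie above 0 and 9 below, and in FDMn against FD 1 lies above and 4 below.

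The genes whose levels moved most like each clock gene were found by the root mean square difference of log2(TPM + 1), each gene centred on its own mean, over the same 12 libraries and 10892 other genes. This was done for the 6 clock genes whose group means spanned at least 1 on the log2 scale, and it describes libraries that share their groups. Per1 was closest to the glucocorticoid target Tsc22d3 (0.12), then to the metallothionein gene Mt1 (0.18) and the mitochondrial carrier gene Slc25a25 (0.18). Per2 was closest to the prolyl hydroxylase gene Egln3 (0.13), the stress cytokine gene Gdf15 (0.14) and Nfil3 (0.14), all highest in FDI. The genes near Arntl included Bcl9l (0.09) and Wbp1l (0.10), and Cry2 was closest to Tns1 (0.11), Olfr1033 (0.13) and Nudt4 (0.13). Nr1d2 was closest to the desmosomal gene Dsc2 (0.11), Cited2 (0.15) and Ypel5 (0.16), and Nr1d1 to Nedd9, Klhdc7a and Slc26a1 (0.17, 0.17 and 0.18). Neither REV-ERB gene was among the 3 nearest of the other.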

How the data were processed

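The authors deposited 1 table of gene-level TPM for 12 libraries, made with kallisto 0.44.0 and the build GRCm38.p6, per the submitters' processing notes, which also name DESeq2 without its role. The sources used here do not give the annotation release, filters, strand use or gene-level summing. Groups and replicate numbers came from the sample titles, and columns were matched by library name. TPM keeps no depth, so no counting interval or floor is given.

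Genes reaching 1 TPM in 3 or more libraries (11544 of 36144) were analysed as log2(TPM + 1) with limma 3.58.1 in R 4.3.3, with 1 term per group over all 12 libraries and an intensity trend. Tests were two-sided, and p-values were adjusted by Benjamini-Hochberg within each of 6 comparisons over all genes tested. An exact permutation test of 3 against 3 cannot go below 0.1. The fit was also run on simulated data with noise drawn separately for each gene. Such data hold no difference in scaling between groups, so they do not bear on the scaling results below. Intervals are 95% and not adjusted. Named genes are all 10 clock genes and, of the further list, those past the threshold with a log2 change of at least 1 or leading their role group; those named outside this (Cipc, Crtc2, Crtc3, Hlf, Nr3c1, Tef and, with manganese, Crem) were chosen after their values were seen. The members and lists were chosen with earlier results of these data known. Coordinates and overlaps are from GENCODE M21 (GRCm38) and promoter windows from RefSeq (GRCm38.p6). Same-numbered samples did not deviate together, so no pairing was used. The closing part lists the 20 alternatives. The marker gene Tf was not analysed here, and results of 2 genes outside the 10 are not reported here.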

Additional observations from a re-analysis of the deposited data

How the results depend on the processing

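Each of the 54 log2 changes of a clock gene (9 genes in 6 comparisons) was recomputed under 20 alternatives where it could be fitted: pseudocounts of 0.1 and 0.5, no filter, a filter of 5 TPM, which left out Dbp, median-of-ratios scaling, quantile normalization, a fit of only the 2 groups compared, a replicate block, and leaving out each library. Of 1074 values, 1055 kept their side of the threshold, 12 lost their call and 7 gained one. Of the 1055, 11 changed sign with no call before or after: 10 of Clock, in FDI against FD, FDMn against FDI and both groups against Mock, and 1 of Nr1d1, in FDMn against FD without FDMn replicate 1 (0.01). No called value changed sign. The replicate numbers did not pair the samples: the 18 same-numbered pairs correlated in their deviations from the group means with r from −0.10 to 0.07 across genes, and 5 of 12 samples were closest to their own number. With the replicate block, 1 rather than 2 clock genes were lower in FDMn than in FDI, as with a pseudocount of 0.1, no filter, median-of-ratios scaling and quantile normalization, Per1 being the gene lost (adjusted p = 0.0642 with the block); leaving out libraries gave 1 to 3. The cause was not tested.

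Scaling moved the balance of all genes. Median-of-ratios scaling gave 2054 higher and 1982 lower genes in FD against Mock (1296 and 3447 on TPM) and 2129 and 2018 in FDMn against Mock (1390 and 3535). Quantile normalization gave 2178 lower in FD against Mock, 2314 in FDMn against Mock and 909 rather than 1375 in FDMn against FDI. The share of lower genes among calls was 72.7% on TPM, 49.1% with median-of-ratios scaling and 55.0% with quantile normalization in FD against Mock. In the same order it was 30.0%, 45.1% and 46.5% in FDI against FD, 67.7%, 55.0% and 51.6% in FDMn against FDI, 66.3%, 48.0% and 55.2% in FDI against Mock, and 71.8%, 48.7% and 54.0% in FDMn against Mock. Median-of-ratios scaling moved the median log2 change of all genes in FD against Mock to −0.01, against −0.15 on TPM. A fit of only the 2 groups gave 681 higher and 304 lower genes in FDI against FD (1172 and 502). Leaving out 1 library gave 733 to 1438 higher and 321 to 683 lower in FDI against FD, 478 to 1005 higher and 540 to 1020 lower in FDMn against FD, and 404 to 715 higher in FDMn against FDI.

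For the 36 further genes, the same alternatives were applied after their values were seen. In FD against Mock the 9 lower genes were 4 with median-of-ratios scaling, 5 with quantile normalization, 4 with only the 2 groups compared and 5 to 10 without 1 library. In FDMn against FD quantile normalization gave 2 higher rather than 1 and no filter gave 2 lower rather than 4 (0 to 3 higher and 2 to 5 lower without 1 library). In FDMn against FDI quantile normalization gave 5 lower rather than 8 (1 to 3 higher and 5 to 9 lower without 1 library). In FDMn against Mock the 7 lower genes were 4 with no filter, 3 with median-of-ratios scaling, 3 with quantile normalization and 3 to 8 without 1 library. In FDI against FD leaving out 1 library gave 3 to 6 higher and 2 to 4 lower. Depth is unknown, so how far it limits Dbp and Per3 cannot be said.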
